A study of Drosophila melanogaster with 2 samples.

Results

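The 10 genes described here encode insulator and architectural proteins of Drosophila melanogaster: CTCF, su(Hw), BEAF-32, Cp190, mod(mdg4), Chro, pita, M1BP, Dref and pzg. They were chosen by name, with earlier results of these data known, and are 10 of the 13945 protein-coding genes on the 6 chromosome arms of build dm6. Chromatin immunoprecipitation followed by sequencing (ChIP-seq) located the CG10979 protein, fused at its C terminus to a green fluorescent protein tag and pulled down through that tag. The samples were 2 biological replicates, numbered 2 and 3, of whole embryos (pooled sex, collected at 0 to 14 h) of a single stable transgenic line, so that all tissues of the embryo are mixed and both replicates carry the tagged copy. There is no second condition, and nothing in the labels says whether the native gene was still present. The deposited values are a list of 30000 peaks for each replicate, another of 30000 for their pool, and a list of 7630 peaks that pass the authors' irreproducible discovery rate (IDR) threshold, a measure of how well peak ranks hold between replicates. Each peak has a summit and a signal value, the authors' own score, which serves for ranking. The depth of sequencing behind them is unknown, as peak lists carry no read counts, and signal values are not comparable between lists.

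Insulators are DNA elements that limit contact between neighbouring stretches of chromatin, and architectural proteins bind them or bridge them into domains. CTCF, su(Hw), BEAF-32 and pita recognise DNA sequence directly. Cp190 and mod(mdg4), both with BTB domains that let proteins pair, are brought in by such factors, and Chro and pzg, also called Chromator and Z4, act together at open chromatin between the bands of polytene chromosomes. M1BP and Dref bind core promoter elements of constitutively expressed genes, which in the fly often coincide with domain borders.

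A peak at the start of the gene was the rule in this group. Of the 10 genes, 9 had an IDR summit within 500 bp of an annotated transcript start, against 25.2% of all protein-coding genes (3520 of 13945, 95% Wilson interval 24.5 to 26.0%, which covers only the number of genes). The exception was mod(mdg4). In the 7630 strongest peaks of replicate 2 alone the count was 9 of 10 (background 24.4%), and in those of replicate 3 it was 10 of 10 (background 26.3%). In the whole pooled list each of the 10 genes had a summit at a start, against 54.1% of all genes, and the whole lists of replicate 2 (background 54%) and replicate 3 (background 54.3%) likewise gave 10. Of the genes with such a pooled summit, 9 of 10 were also in the IDR list, against 46.7% of all such genes. The count was 8 within 200 bp of a start (background 18.3%), 9 within 1000 bp (29.4%), 8 for the most upstream start alone (22.7%) and 6 among the 3815 IDR peaks of highest signal value (13.1%). Among the 763 strongest IDR peaks, 4 of the 10 genes had one at a start (Chro, Cp190, pzg and M1BP), against 3.2% of all genes. These counts are descriptions of 10 named genes, and no test was made over them.

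DNA around the summits shows what kind of sequence carries these peaks, and it is printed here for 8 of the 10 genes, along the strand of the gene; none is shown for BEAF-32 and pita. Capitals mark every word searched for, on either strand. For BEAF-32 this was CGATA and for Dref the longer TATCGATA, for M1BP it was GGTCACAC, and for Su(Hw) it was TGCATA. For CTCF the word was AGATGGC, with the variants AGGTGGC, then AGAGGGC, then AGGGGGC. The GAGA factor was searched by the word GAGAG, and Zw5 by GCTGCG or else GCTGAG. The others were the TATA box (TATAAA), the homeodomain core (TAATTA) and ATATTA, a word low in G and C. Sequences are from the RefSeq genome of Release 6 (dm6). The first 3 are the summit with 50 bp on either side at Cp190 (chr3R:15275311-15275411), M1BP (chr3R:8731831-8731931) and su(Hw) (chr3R:14308886-14308986), and the fourth is the 83 bp of such a window outside exons at Dref (chr2L:9967230-9967312), all on the minus strand and between genes.
Cp190: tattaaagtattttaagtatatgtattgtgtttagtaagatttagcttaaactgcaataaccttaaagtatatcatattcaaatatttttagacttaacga
M1BP: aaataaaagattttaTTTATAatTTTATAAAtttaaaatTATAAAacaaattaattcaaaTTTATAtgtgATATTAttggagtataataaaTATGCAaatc
su(Hw): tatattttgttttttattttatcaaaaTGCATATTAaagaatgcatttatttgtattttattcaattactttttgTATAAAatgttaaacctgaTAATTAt
Dref: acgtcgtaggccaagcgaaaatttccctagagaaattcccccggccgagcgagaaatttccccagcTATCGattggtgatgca

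The summits of the next genes lie in untranslated first exons, so that only 30 bp around a marked word are shown: Chro (chr3L:22878880-22878909, minus strand), pzg (chr3L:21285903-21285932, plus strand), CTCF (chr3L:7356676-7356705, minus strand) and the strongest peak inside mod(mdg4) (chr3R:21365419-21365448, minus strand).
Chro: gttagtttaaagcTATCGacaggcaataca
pzg: caagtaaaTAATTAcgtTATCGtaatgaac
CTCF: tgtcGCCATCTtttattagaaatgggcagc
mod(mdg4): ccaataccaaTATGCATAttttgctataat

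Among the cofactors, Chro, Cp190 and pzg had start peaks of 1631 to 6284 in the IDR list, and mod(mdg4) had none. Chro (FBgn0044324, chromosome 3L, 22873702 to 22878984, minus strand), a chromodomain protein, had a signal value of 6284 in the IDR list, rank 14 of 7630. Its value was 3547 in replicate 2 and 2746 in replicate 3, at ranks 11 and 17 of the replicates' own lists. The 3 summits lay within 6 bp of each other, between 77 and 83 bp downstream of the most upstream of 3 annotated starts. They lay 133 to 139 bp upstream of the middle start, at 22878768, where 3 of the 5 transcripts begin. Only 10 of the 3520 protein-coding genes with an IDR start peak had a stronger one, since Chro stood at rank 11 among them. The start farthest downstream, at 22878184, had a separate weak summit in the pooled list (signal value 100.8, rank 13629), with 29.0 in replicate 2 and 79.0 in replicate 3.

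Cp190 (FBgn0000283, chromosome 3R, 15270432 to 15275241, minus strand) had a signal value of 2678 at 120 bp upstream of its start, rank 172 in the IDR list and rank 123 among genes. Replicate 2 gave 1540.4 and replicate 3 gave 1142, at ranks 155 and 195. Its second annotated start, at 15274790, had no summit within 500 bp in any of the 4 lists.

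The gene pzg (FBgn0259785, chromosome 3L, 21286099 to 21290310, plus strand) encodes a zinc finger protein found with Dref as well as with Chro. It had 2 IDR summits within the same called interval. The stronger, with a signal value of 1631 (rank 514), lay 217 bp upstream of the start, and the weaker, with 298.5 (rank 4845), lay 2 bp downstream of it. In replicate 2 the stronger peak had 1080.0 (rank 349) and in replicate 3 it had 568 (rank 797). The weaker peak had 219 in replicate 2 and 141 in replicate 3.

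The last cofactor, mod(mdg4) (FBgn0002781, chromosome 3R, 21350846 to 21377401, minus strand), is known for trans-splicing, in which shared first exons are joined to last exons from separate transcripts, and the annotation lists those as 23 pre-mod(mdg4) entries. All 22 of its transcripts start at 21377401. The pooled summit there, 54 bp downstream, had a signal value of 179 (rank 8091), below the 189.9 of the weakest IDR peak. Replicate 2 had 70.3 (rank 10651) and replicate 3 had 114 (rank 6322), the reason that this gene is counted in replicate 3 alone.

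Stronger peaks lay elsewhere in the mod(mdg4) region. Inside the gene, 11963 bp downstream of the start, an IDR summit at 21365438 had a signal value of 1039 (rank 1072), with 563 in replicate 2 and 479 in replicate 3. It lay within 500 bp of the starts of 10 pre-mod(mdg4) entries, in the untranslated first exon of pre-mod(mdg4)-E, 50 bp from its start. A weaker one at 21373611 (signal value 205, rank 7064) lay 36 bp from the nearest start of pre-mod(mdg4)-AA, pre-mod(mdg4)-N and pre-mod(mdg4)-O. The RefSeq entry of mod(mdg4) spans 21370101 to 21377401 only, so that the summit at 21365438 is inside the gene in the Ensembl annotation and outside it in RefSeq. The 10 entries are annotated as protein-coding genes, and each is counted among the 3520 genes with a start peak. Upstream of mod(mdg4), an IDR summit with a signal value of 2107 (rank 282) lay 1366 bp from its start and 210 bp from the start of tin, a homeobox gene of the heart and dorsal muscle.

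**Figure D1:**
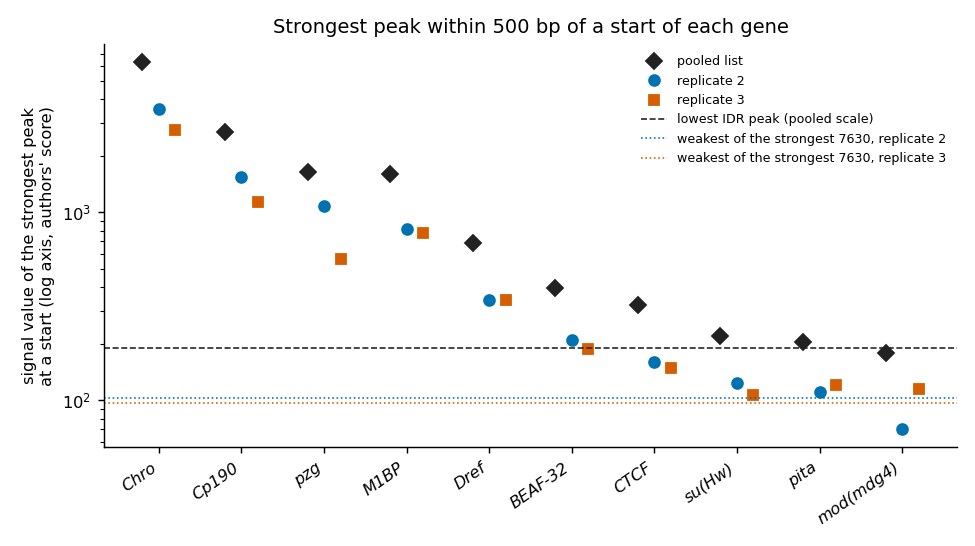
Signal value (authors' score, log axis) of the strongest peak within 500 bp of a start of each gene, in the pooled list, replicate 2 and replicate 3; lines give the weakest IDR peak (189.9) and the weakest of the 7630 strongest peaks in replicate 2 (102.5) and replicate 3 (96.9). Chro, Cp190, pzg and M1BP stand highest in every list, and mod(mdg4) is below the line in the pooled list and in replicate 2.

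The promoter factors followed. M1BP (FBgn0037621, chromosome 3R, 8729790 to 8731698, minus strand), which binds Motif 1 of core promoters and is tied to paused polymerase, had a signal value of 1592 at 183 bp upstream of its only start (rank 534, rank 328 among genes). Replicate 2 gave 813 and replicate 3 gave 779. The pooled list held no other summit in its extended span. Dref (FBgn0015664, chromosome 2L, 9964147 to 9967229, minus strand), which binds the DNA replication-related element of proliferation genes, had 688 at 33 bp upstream (rank 1869, rank 991 among genes). Replicate 2 gave 340.1 (rank 2159) and replicate 3 gave 340.4 (rank 1679).

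The 4 genes for proteins that recognise insulator sequences had weaker start peaks than Chro, Cp190, pzg, M1BP and Dref. Their signal values in the IDR list were between 205 and 395. The pooled summit at the start of mod(mdg4), at 179, was weaker still. Within 200 bp of its start pzg had only the peak of 298.5, below BEAF-32 and CTCF. BEAF-32 (FBgn0015602, chromosome 2R, 14770469 to 14772630, plus strand), named for boundary elements of the heat shock locus, had 395 at 91 bp upstream of the first of 3 starts (rank 3599), with 209 in replicate 2 and 187 in replicate 3. CTCF (FBgn0035769, chromosome 3L, 7353578 to 7356713, minus strand), the fly counterpart of the vertebrate insulator protein, had 319.6 at 58 bp downstream (rank 4515), with 159.9 and 148 in replicates 2 and 3. Against the IDR list's median of 373, BEAF-32 stood just above and CTCF below.

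The peak at su(Hw) (FBgn0003567, chromosome 3R, 14304455 to 14308589, minus strand), which encodes the protein of the gypsy insulator, had 220.2 at 347 bp upstream (rank 6589), with 124 in replicate 2 and 107 in replicate 3. The replicate summits lay apart, 406 bp upstream in replicate 2 and 301 bp upstream in replicate 3. At pita (FBgn0034878, chromosome 2R, 23548967 to 23554712, minus strand), which encodes a zinc finger protein that brings in Cp190, the IDR summit had 205 (rank 7053). It lay 78 bp inside the downstream of 2 starts, in untranslated exon sequence of both pita and Dcp-1. The first start of pita had no IDR peak, and its pooled summit had 162 (rank 8881). Replicate 2 had 110.2 and replicate 3 had 121 at the downstream start. Both genes lay close to the weakest IDR value of 189.9.

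Over the 9 genes with an IDR start peak, the median signal value was 688, against 388 over all 3520 protein-coding genes with one. The order Chro, Cp190, then pzg and M1BP, then Dref, BEAF-32 and CTCF held in both replicates. The pairs within it that did not keep their order were pzg and M1BP, with M1BP higher in replicate 3, and su(Hw), pita and mod(mdg4), whose values of 107 to 121 in replicate 3 stood in another order than in replicate 2. Genes within either set could not be ranked beyond the spread between replicates.

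**Figure D2:**
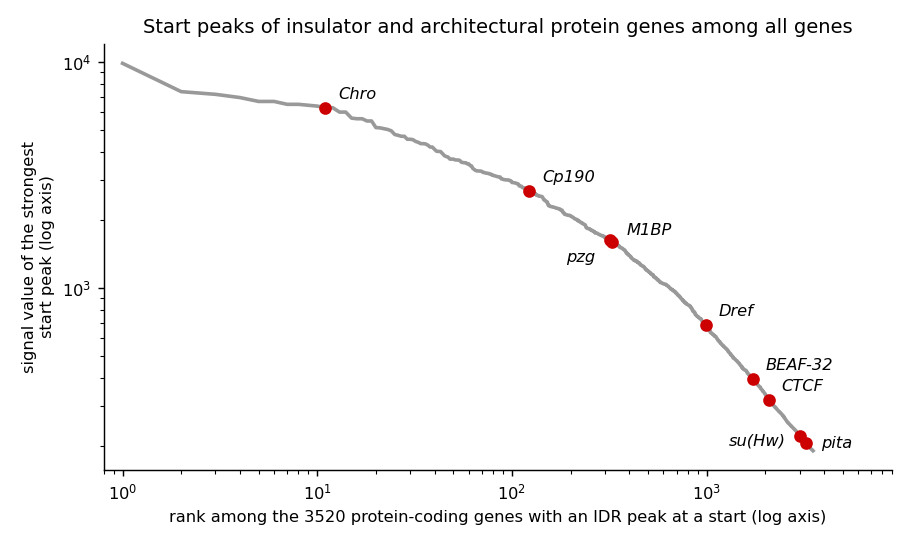
Signal value of the strongest start peak (log axis) against its rank (log axis) among the 3520 protein-coding genes with an IDR peak at a start (grey line); red points are the 9 genes of the group that have one. They range from rank 11 (Chro) to rank 3245 (pita).

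Replicates were compared through the ratio of replicate 2 to replicate 3 at the nearest summit within 100 bp of each IDR start summit. It had a median of 0.16 on the log2 scale over the 9 genes, against 0.28 ± 0.44 (SD over peaks) for the 7351 IDR peaks that could be matched this way. As values scale with the list, each ratio is read against that median of all peaks and not against 0. The extremes were pzg at 0.93 and pita at −1.51, both outside the range of −0.59 to 0.80 that held 90% of all matched peaks. At pita the nearest summit of replicate 2 was a weak one (signal value 42.3), and its stronger summit stood 121 bp from the IDR summit. With the strongest summit within 200 bp, a rule chosen after seeing the data and applied to the 9 genes only, pita had −0.13 and the other 8 values stayed as they were.

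**Figure D3:**
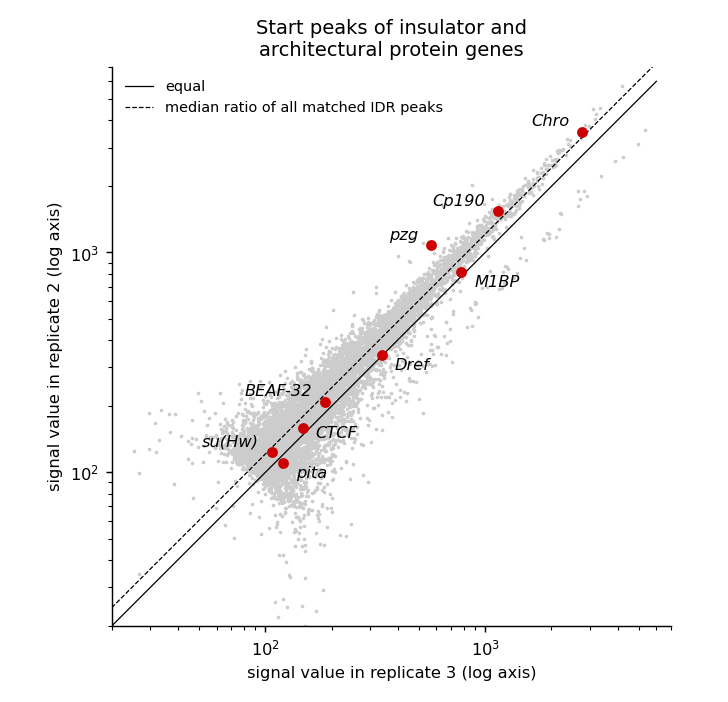
Signal value in replicate 2 against replicate 3 (both log axes) for all IDR peaks matched in both replicates by the nearest summit within 100 bp (grey), and the start peaks of 9 genes by the strongest summit within 200 bp (red), with lines of equal value and of the median ratio. pzg, Cp190 and Chro lie above the line of the median ratio, pzg the farthest, and the other 6 genes lie below it.

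Most of these peaks belonged to shared promoters. In 8 of the 9 genes another gene also started within 500 bp of the strongest start summit, against 58.3% of all protein-coding genes with an IDR start peak. CTCF was the exception. All 8 neighbours lay on the opposite strand. By the neighbour's start nearest to the summit, 7 of them formed a divergent pair with the member. The starts of a pair lay between 84 bp (Dref) and 500 bp (su(Hw)) apart. At BEAF-32 the summit also lay in an intron of asRNA:CR42254, which has another start inside BEAF-32, so that these genes overlap. A divergent protein-coding neighbour at the same summit was found for 6 of the 9 genes, against 50.1% of all genes with a start peak. A peak in such a place cannot be assigned to either gene.

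The neighbours varied in function. The Chro peak lay 182 bp from the start of Ssl1, which encodes a subunit of the transcription factor TFIIH, and the Dref peak lay 51 bp from the start of RpL13, a ribosomal protein gene. At su(Hw) the summit was closer to Polr2I, an RNA polymerase II subunit gene, at 153 bp, than to su(Hw) itself at 347 bp. At pzg the stronger summit was closer to CG12974 (80 bp) and lay inside its untranslated first exon. The remaining neighbours were CG4338 at Cp190 (161 bp), CG8202 at M1BP (210 bp), Dcp-1, a caspase gene, at pita (160 bp) and the antisense RNA gene asRNA:CR42254 at BEAF-32 (108 bp). By the nearest start of each gene, the summit lay between both starts in 6 of the 8 pairs, and outside them for Chro and pzg. At Chro it did lie between the start of Ssl1 and the Chro start at 22878768, where 3 of 5 transcripts begin.

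Gene arrangement moves with the count of start peaks. Another gene's start lay within 1 kb of a start for 9 of the 10 genes, against 48.2% of all protein-coding genes, and mod(mdg4) was the one without. Of all genes with such a neighbour, 37.1% had an IDR start peak, against 14.2% of genes without. The part of this arrangement in the count of 9 was not tested.

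Relative to their nearest start, 6 of the 9 summits lay upstream and 3 (Chro, CTCF and pita) downstream, with a median of −91 bp. The Chro summit lay 139 bp upstream of the start with 3 of its 5 transcripts. Over all 3520 genes the median was −136 bp, and 84.6% of summits lay upstream.

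In the spans extended by 5 kb on either side there were 20 IDR peaks, and each of the 10 genes had at least 1, against 58.1% of all protein-coding genes. All 10 also had a span summit among the strongest peaks of replicate 2 (background 57.7%) and of replicate 3 (58.7%), and in the whole pooled list (75.7%). The mean was 2 peaks, against 1.25 over all genes. Of the 20, 10 lay at a start of the gene itself, 6 at a start of another gene and 4 in introns of other genes, and 6 lay inside the gene, where the span is that of the Ensembl annotation. The 6 at starts of other genes included the peaks at tin, at pre-mod(mdg4)-E and at pre-mod(mdg4)-AA described above. Another was near pita, 16 bp from the start of levy, a gene of cytochrome c oxidase, and also near wmd, with a signal value of 497 (rank 2779). It was stronger than the peak at the start of pita.

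The last 2 at starts of other genes had signal values of 196 near Chro, at CG11109 with Arf1 and asRNA:CR45969 also starting there, and 190.5 near Cp190, at ATPsynO, a subunit gene of ATP synthase. The intronic ones had 339 in aus beyond mod(mdg4), 309 in CG31321 upstream of su(Hw), 282 in slif, an amino acid transporter gene, upstream of Chro, and 190.3 in Sec63, a gene of protein import into the endoplasmic reticulum, near CTCF. The intronic peak in CG31321 exceeded the start peak of su(Hw) in the IDR list.

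**Figure D4:**
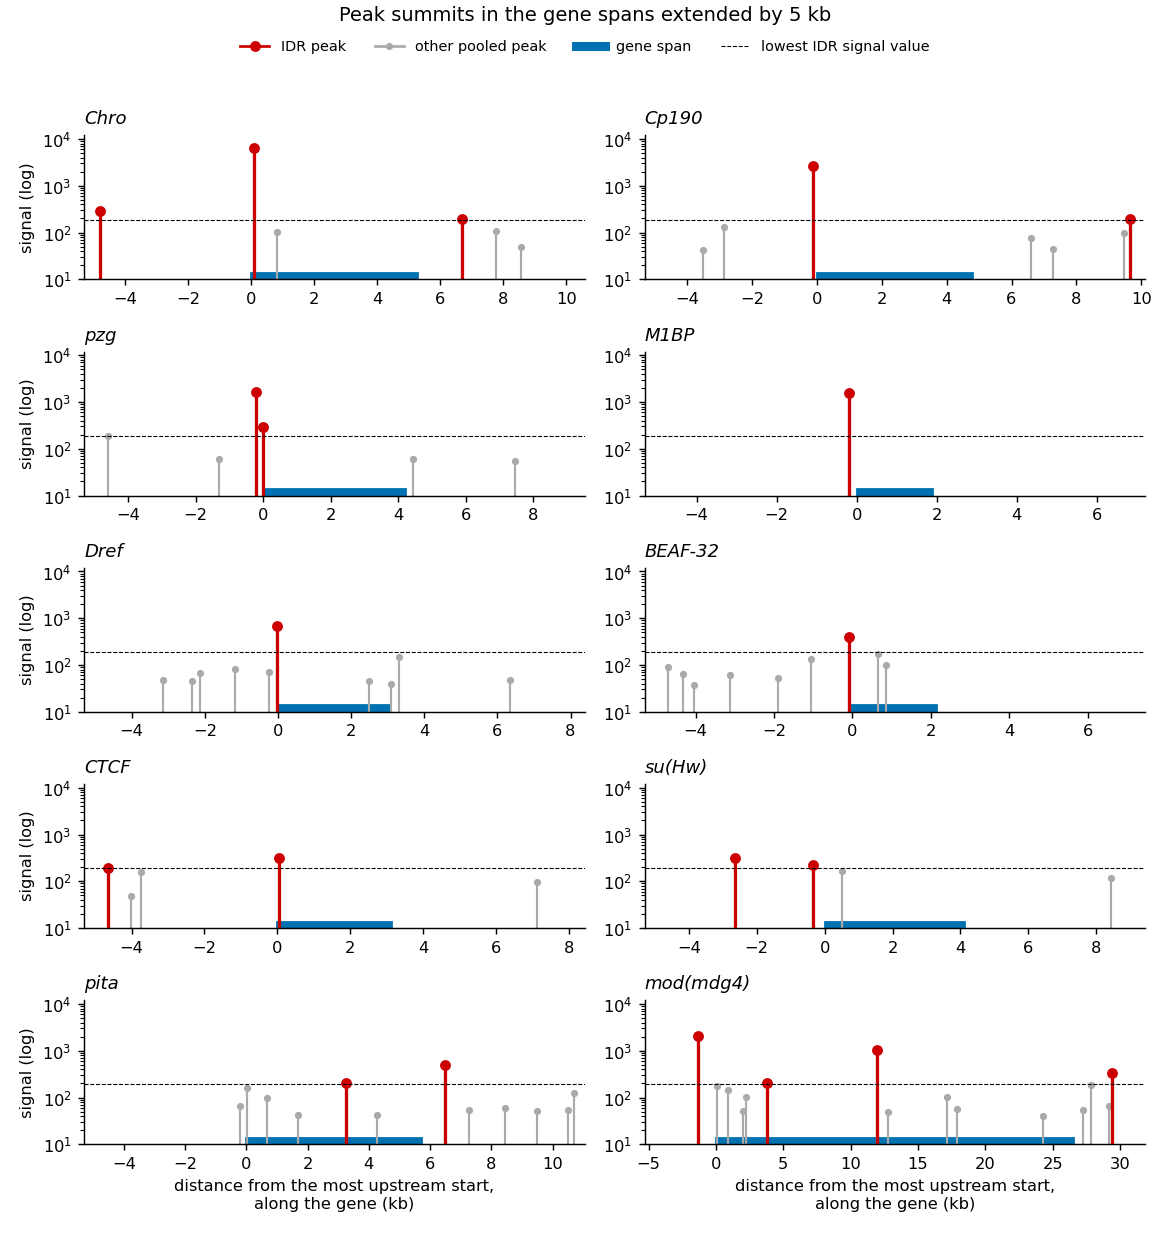
Peak summits in each gene span extended by 5 kb: signal value (log axis) against distance from the most upstream start along the gene (kb), with IDR peaks in red, other pooled peaks in grey and the gene span as a blue bar. M1BP has a single summit, Dref and BEAF-32 have 1 IDR peak among 10 and 9 pooled summits, and mod(mdg4) has its IDR peaks away from its start.

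Most of the summits held less G and C than their flanks, as did those of most genes with a start peak. The GC content of the strongest start summit with 50 bp on either side had a median of 24.8% over the 9 genes, against 30.7% over all genes with a start peak, and ran from 10.9% at M1BP to 53.5% at pita. It was 20.8% at Cp190 and 14.9% at su(Hw), the sequences printed above. In 6 of 9 genes the summit held less G and C than the windows 300 bp to either side, with a median difference of −14.4 points, the same as over all genes with a start peak, 80.1% of which were below their flanks. Chro (3.96 points), Dref (9.90) and pita (13.4) were above theirs. At Chro, where the GC content at the summit was 31.7%, the flanks held 27.7%. Closer in, windows centred 120 bp upstream and 140 bp downstream each held 52.5%, so that the Chro summit still lay in a local dip.

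**Figure D5:**
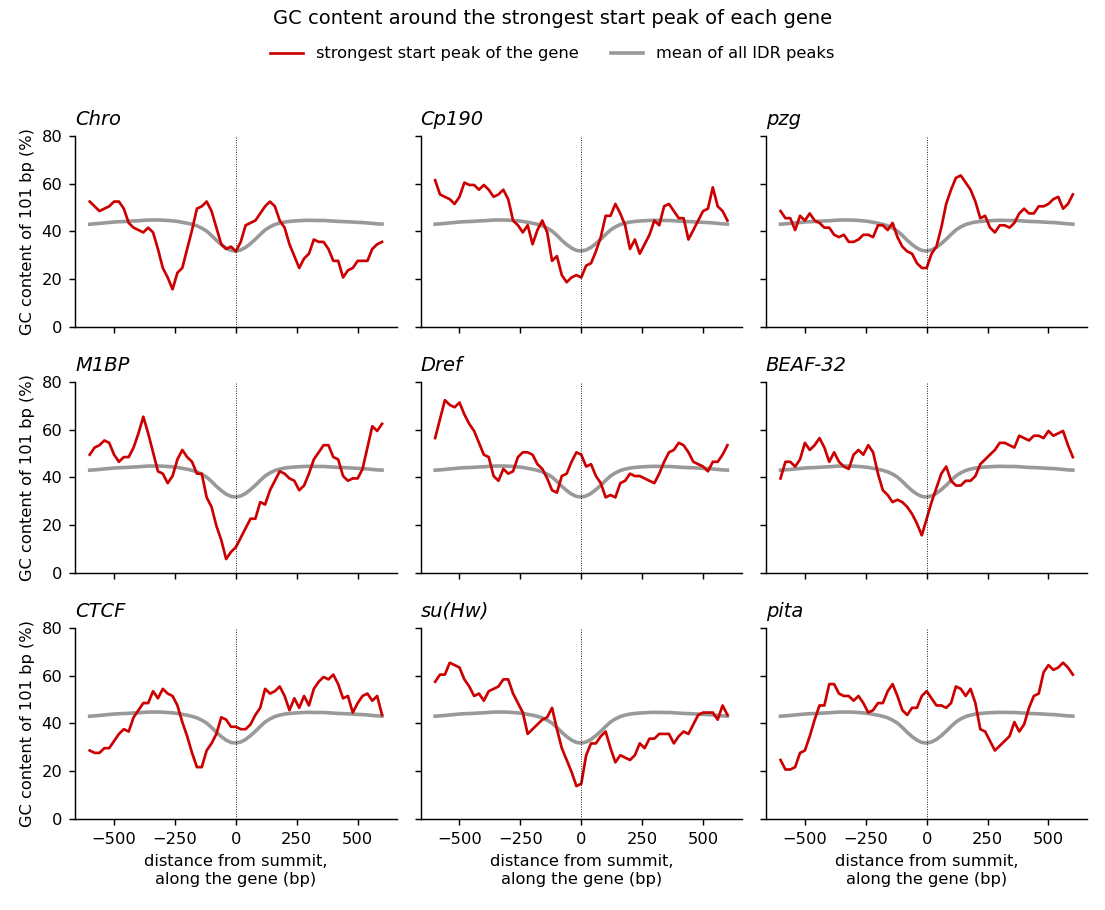
GC content (%) of windows reaching 50 bp to either side of their centre, against distance from the strongest start summit along the gene (bp), for each of 9 genes (red) and as the mean of all IDR peaks (grey). At the summit GC content is lowest at M1BP (10.9%) and su(Hw) (14.9%), and Dref and pita show no trough there. At CTCF the trough lies away from the summit, with 21.8% at −160 and −140 bp against 38.6% at the summit.

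Words of insulator and promoter proteins were looked up in the same windows. At least 1 word of BEAF-32, Dref, M1BP, CTCF, Su(Hw), GAGA factor or Zw5 was present at 7 of the 9 start summits, against 33.2% of all IDR windows of that length. The shares of IDR windows cover peaks at gene starts and elsewhere alike, while the 9 are all at starts. CGATA was found at Chro, pzg and Dref, 11 to 38 bp downstream of the summit along the gene (12.9% of IDR windows). TGCATA was found at su(Hw) and M1BP (8.51%), a Zw5 word at pzg and pita (4.43%) and a CTCF word at CTCF (4.39%). Cp190 and BEAF-32 had none. Of the other words, TATAAA was found at M1BP and su(Hw) (26.1% of IDR windows), TAATTA at pzg and su(Hw) (11.5%) and ATATTA at Chro, M1BP and su(Hw) (24.0%). The Dref word TATCGATA contains CGATA. It (1.31% of IDR windows), GGTCACAC (0.799%) and GAGAG (8.07%) were in no start window of the group. The strongest peak inside mod(mdg4) held TGCATA on both strands, overlapping, at the summit itself. Words of 5 to 8 letters match often by their letters alone, and a match is not evidence of binding.

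Of the 5 proteins with a word of their own in the search, 2 had it at their own gene. The CTCF word at CTCF starts 46 bp upstream of the summit, and the TGCATA at su(Hw) starts 23 bp upstream of its IDR summit. The replicate 3 summit at su(Hw) lay 46 bp downstream of the IDR summit, so that this word is more than 50 bp from it. BEAF-32, M1BP and Dref did not have theirs within 100 bp of the summit on either side, windows of which 25.1%, 1.81% and 2.70% hold the word over all IDR peaks.

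Other genes of chromosome architecture had start peaks less uniformly. Of 34 further symbols, 31 were found in the annotation, and 11 of these (35.5%) had an IDR start peak, against the 25.2% of all genes, with a median signal value of 551. The strongest were row (959), Zaf1 (848), a zinc finger gene, lola (787), which encodes BTB proteins, Trl (701), the gene of GAGA factor, SA1 (582), a cohesin subunit gene, and Cap-H2 (551), a condensin subunit gene. JIL-1, Jarid2, Lam, psq and woc had values between 227 and 365. The 20 without an IDR start peak were Clamp, Elba1, Elba2, Elba3, Ibf1, Ibf2, Mi-2, Nipped-B, Opbp, SA2, SMC1, SMC3, Top2, Topors, ZIPIC, dwg, insv, l(3)mbt, rump and vtd. Of these, Mi-2 came closest, with 187 in the pooled list. None of the 11 reached the signal value of M1BP, pzg, Cp190 or Chro.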

How the data were processed

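Per the labels, chromatin of whole embryos was sheared by sonication to 200 to 800 bp. Lists are narrowPeak files on dm6. Per the deposited text, replicates had peaks called separately and pooled peaks came from both alignments, with a control alignment, and IDR peaks were taken from those lists. Caller and aligner were not given in the sources used here, and the authors deposited the signal value as a score. The deposited −log10 q values share 1 top value over all IDR peaks, so ranking did not use them. The control alignment and coverage were not analysed here.

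Gene starts came from Ensembl release 115 without transposable elements, and sequence from RefSeq, both of the Release 6 assembly (dm6). Gene spans of 9 of the 10 genes are the same in RefSeq. Coordinates count from 1. Ranks follow the signal value. Each replicate's 7630 strongest peaks stood for it. The 10 genes, the further gene symbols and the words searched were chosen with earlier results of these data known. Named were all 10 genes, every gene sharing a counted summit, the nearest gene of other summits in the spans, and of the further list the 6 strongest and every gene without a peak. JIL-1, Jarid2, Lam, psq and woc, outside this rule, were named after their values were seen. Counting of start peaks was run on summits planted at known distances, which checks the code and says nothing about the counts. Shares of genes have Wilson intervals. No test was made, as there is 1 group of 2 replicates. Alternatives were windows of 200 and 1000 bp, the most upstream start, other lists, each replicate alone, other span extensions, other matching distances, and summit windows reaching 25 or 100 bp to either side. Scripts ran in Python 3.11.15 with pandas 2.3.3, numpy 2.4.6, matplotlib 3.10.9 and scipy 1.17.1.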

Additional observations from a re-analysis of the deposited data

How the results depend on the processing

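The count of genes with a start peak was 8 with a window of 200 bp or the most upstream start only, 9 with 1000 bp, 6 among the 3815 strongest IDR peaks and 10 in the whole pooled list, and 9 to 10 in the replicates alone. Counts of shared promoters varied from 6 to 9, and the share over all genes was computed only for the main count given above. Windows with a listed word numbered 5 of 9 with 25 bp on either side of the summit, against 18.7% of all IDR windows. With 100 bp they numbered 7 of 9, against 57.6%. Further genes with a start peak ranged from 9 of 31 within 200 bp (18.3% of all genes) to 12 of 31 within 1000 bp (29.4%). IDR peaks in the spans numbered 6 with no extension and 9 among the 3815 strongest, in place of 20, and with no extension 5 genes had one. The replicates gave 20 each. Shares of all genes were not computed with no extension or among the 3815 strongest. The median GC difference was −11.9 points with 100 bp on either side of the summit, −20.6 points with 25 bp, and −11.4 to −14.4 points at the replicates' own summits. The median log2 ratio of replicates changed sign, to −0.069, when each list was divided by its median. The median percentile of the start peaks within the IDR list was 75.5, with 64.2 for a window of 200 bp and 65.8 to 71.7 in the replicates. With a window of 200 bp the percentile of pzg fell from 93.3 to 36.5, and su(Hw) had no IDR start peak. The causes of these shifts were not tested. The alternatives of the ratio with the strongest summit, of genes with a close neighbour and of the further genes were chosen after seeing the data. No paired analysis was possible because there is 1 group and no second condition. Depth is unknown, so that the weakest peaks, those of su(Hw), pita and mod(mdg4), cannot be given an error beyond the spread of the replicates.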

Other observations

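A second, weaker summit lay near the start peak at M1BP and Dref, and also at pzg. At M1BP it lay within the interval of the main peak, 402 bp upstream of the start in replicate 2 (signal value 171) and 401 bp upstream in replicate 3 (179.6), and the pooled list has no such summit. The start of CG8202 lies 393 bp upstream of that of M1BP, so the second summit was much closer to CG8202. At Dref it lay 240 bp upstream in the pooled list (70.8), with 64.5 at 220 bp in replicate 2 and 61.6 at 221 bp in replicate 3. The start of RpL13, 84 bp upstream of that of Dref, was the nearer one there. Around BEAF-32, pooled summits of 169.9 and 101.3 lay near its starts farther downstream, both below the weakest IDR peak. A start of asRNA:CR42254 also lay within 500 bp of both. For the summit of 169.9 it was the nearer one, at 179 bp against 185 bp.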
